A study of Mus musculus with 26 samples.

Results

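Ribosome biogenesis factors are the proteins that transcribe, modify, cut and fold ribosomal RNA and load it with ribosomal proteins. The 44 factors described here were taken by name, but with earlier results of these data known. All 44 were found among the 48795 genes of the count table. Each had at least 572 counts in every library, and all 44 were among the 14663 genes that passed the filter on low counts.

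Ribosomes are built in the nucleolus, where RNA polymerase I transcribes the ribosomal RNA precursor. Small nucleolar ribonucleoproteins (snoRNPs) guide its chemical modification, the small subunit processome folds and cuts the part that becomes the small subunit, and a separate set of factors matures the large subunit. Many of these genes are known targets of the transcription factor MYC, and in the myeloid lineage their expression is typically high in cycling progenitors and low in mature granulocytes and macrophages. Npm1 is also one of the genes most often mutated in human acute myeloid leukaemia (AML).

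RNA was sequenced from cultured mouse myeloid progenitors of C57BL/6 background, transformed by Hoxa9 and Meis1 (H9M) or by MN1, as 2 models of AML. In each model there were 4 groups of 3 libraries: LSD1 knockout (KO) with 1 µM all-trans retinoic acid (ATRA), KO without ATRA, control (CTL) with ATRA, and CTL without ATRA. LSD1, encoded by Kdm1a, is a histone demethylase and corepressor, and ATRA is a retinoic acid receptor ligand that drives differentiation of myeloid cells. The knockout was induced with 0.1 µM 4-hydroxytamoxifen for 72 h, which activates the CreERT2 recombinase on a conditional Lsd1 allele (LSD1TM1Schuele). No label tells if 4-hydroxytamoxifen was also given to the controls, and the strain field reads CreERT2-;LSD1TM1Schuele for every library, KO libraries included. If it was not given to them, loss of LSD1 and exposure to 4-hydroxytamoxifen cannot be told apart. The medium of all groups held serum, IL-3, IL-6 and stem cell factor. The labels do not say that the replicates were separate cultures, so p-values measure the spread between these libraries, which may be technical. The descriptions of the H9M libraries end in LR-27308 and those of the MN1 libraries in LR-27309. No label says what these numbers stand for, and model and any batch they mark cannot be told apart. H3K4me2, a histone mark of active and poised promoters, was measured by ChIP-seq in lineage-negative bone marrow cells of a GFI-KD and a GFI1-WT mouse line, with 1 library each.

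Kdm1a counts stood at 7.51% of the matched control in H9M KO with ATRA, 0.693% in H9M KO, 1.09% in MN1 KO with ATRA and 0.748% in MN1 KO. Library totals ranged from 22402558 to 32674685 counts. Levels are given as counts per 1000000 counts of the library (CPM), which are not corrected for gene length, so they compare libraries and not genes. In RNA from a whole culture, fewer cells of a type and less RNA per cell cannot be told apart. Markers of the labelled cell type, immature myeloid genes such as Kit and Mpo, were detected in every group, and none of the 7 listed was under 1 CPM in all 3 libraries of a group.

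Promoter sequence is shown first, and a link between it and the changes in the comparisons that follow was not tested. RefSeq windows (GRCm38.p6), which run from 250 bases before to 50 bases after an annotated start, were matched by symbol to 39 of the 44 members (43 windows). Npm1, Rrs1, Rrp12, Fbl and Bop1 had no matching window. The E-box CACGTG, which is its own reverse complement and is the textbook binding site of MYC and MAX, was present in 10 of 39 members (25.6%) and in 10 of 43 windows (23.3%). The same letters were found in 7.15% of all 32851 windows of the table, in 9.85% of the windows of genes tested here, in 16.1% of windows of other ribosome biogenesis genes and in 11.3% of those of ribosomal protein genes. The ETS core CCGGAAG, searched on both strands, was in 30.2% of member windows, against 8.86% of all windows, 17.1% of tested genes, 44.8% of other biogenesis genes and 36.6% of ribosomal protein genes. These letters cannot overlap an E-box.

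In 8 of the 10 member windows with an E-box it began at or after the annotated start, against 203 of 1293 such windows of tested genes (15.7%) and 356 of 2349 of all windows (15.2%). A match of letters is not a measured binding site. Wdr43, a subunit of the small subunit processome, was the E-box member that the knockout comparisons name in full by role. Its whole window on the plus strand, chr17:71615965-71616264, is printed with the E-box in capitals, 17 bases after the start:
Wdr43: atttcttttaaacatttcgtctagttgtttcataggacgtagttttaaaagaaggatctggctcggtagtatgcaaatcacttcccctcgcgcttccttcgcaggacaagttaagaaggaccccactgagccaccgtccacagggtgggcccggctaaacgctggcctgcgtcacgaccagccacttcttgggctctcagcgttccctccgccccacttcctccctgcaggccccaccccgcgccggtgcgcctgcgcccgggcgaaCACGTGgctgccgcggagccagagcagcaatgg

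The E-box stretches of the other 9 members, chosen after the matches were seen, are shown on the gene's strand with up to 20 bases either side, so that the flanking letters can be compared. Distances count from the annotated start, with negative values before it.
Pes1 (chr11:3963957-3964002, plus strand, 2): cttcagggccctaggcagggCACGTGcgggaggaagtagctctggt
Nle1 (chr11:82908347-82908392, minus strand, 23): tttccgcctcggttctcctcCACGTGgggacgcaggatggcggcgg
Tsr1 (chr11:74898084-74898129, plus strand, 24): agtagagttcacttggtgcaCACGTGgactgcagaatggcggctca
Ltv1 (chr10:13193088-13193129, minus strand, 28): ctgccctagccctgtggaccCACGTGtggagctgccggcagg
Grwd1 (chr7:45830740-45830775, minus strand, 34): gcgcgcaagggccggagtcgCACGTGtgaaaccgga
Utp20 (chr10:88826765-88826797, minus strand, 37): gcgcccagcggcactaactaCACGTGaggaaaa
Mybbp1a (chr11:72441347-72441376, plus strand, 40): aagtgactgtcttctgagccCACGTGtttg
Nop2 (chr6:125131803-125131848, plus strand, -60): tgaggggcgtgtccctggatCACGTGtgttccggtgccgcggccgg
Imp4 (chr1:34439688-34439733, plus strand, -121): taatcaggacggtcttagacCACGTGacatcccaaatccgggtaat
The Imp4 window had its E-box the farthest before the start of the 10.

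The summed level of the 44 factors was lower in knockout than in control cells in both models, lower with ATRA than without, and higher in MN1 than in H9M cells. H9M KO with ATRA summed to 7086, 6945 and 6766 CPM, H9M KO to 7553, 7544 and 7331 CPM, H9M CTL with ATRA to 8917, 8685 and 8823 CPM, and H9M CTL to 9279, 9237 and 9289 CPM. MN1 KO with ATRA summed to 11112, 10793 and 10931 CPM, MN1 KO to 11565, 11576 and 11778 CPM, MN1 CTL with ATRA to 13073, 12754 and 12540 CPM, and MN1 CTL to 13624, 13530 and 13693 CPM. No 2 of the 8 groups overlapped. The mean sum fell by 19.3% in H9M KO and by 14.5% in MN1 KO, relative to the model's untreated CTL. With ATRA it fell by 4.96% in H9M CTL and by 6.07% in MN1 CTL. With knockout and ATRA together it fell by 25.2% in H9M cells and fell by 19.6% in MN1 cells, relative to untreated CTL. Ncl and Npm1 carry 37.5% of the members' counts, so the sum is weighted to them, and no test was made of it. The sums use library totals, without the TMM size factors of the tests below. Those factors were 0.9694 to 0.9725 in H9M CTL and 0.9427 to 0.9504 in H9M CTL with ATRA. In MN1 CTL they were 1.0253 to 1.0407, and 1.0465 to 1.0533 with ATRA. With them, the fall with ATRA would be smaller in H9M CTL and larger in MN1 CTL. The excess of MN1 CTL over H9M CTL would be smaller.

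**Figure D1:**
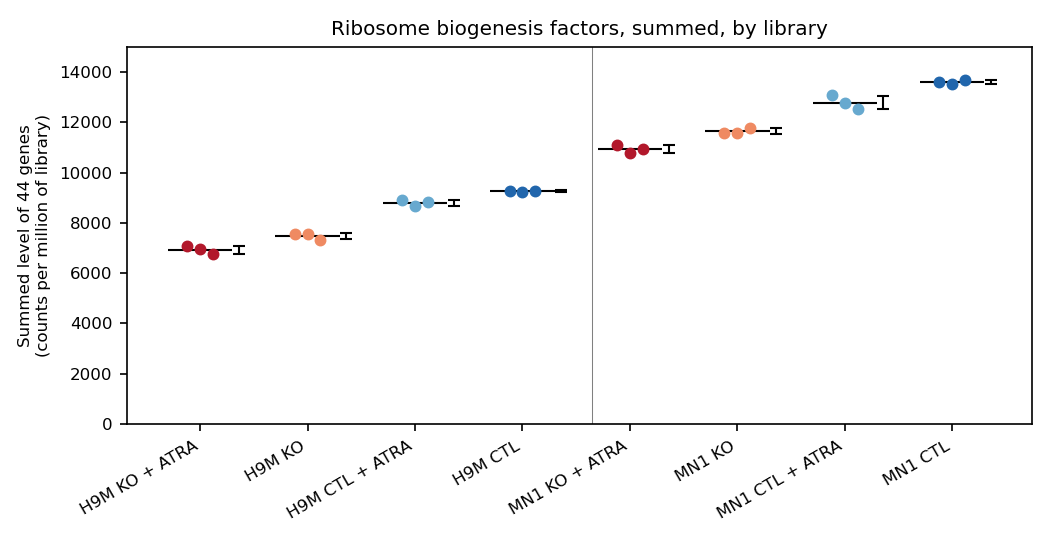
Summed CPM of the 44 ribosome biogenesis factors in each of 24 libraries (points), with group means (lines) and SD (bars), for the 4 H9M and the 4 MN1 groups. The 8 groups do not overlap, and the MN1 CTL libraries, at 13530 to 13693 CPM, are the highest.

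The first comparison asks how KO differed from CTL without ATRA. In H9M cells 40 of the 44 factors fell in KO and 0 rose, where 51.5% of all tested genes were called, 25.4% lower and 26.1% higher (edgeR quasi-likelihood test, adjusted p under 0.05, here and for every call). In MN1 cells 37 of 44 fell in KO and 0 rose, where 55.0% of all tested genes were called, 26.3% lower and 28.7% higher. The changes were small. The median log2 fold change of the members was -0.27 in H9M KO and -0.23 in MN1 KO, against 0.00 and 0.01 over all tested genes. Both models had 36 members in common among those called lower. The share of all tested genes called lower in both models was not counted. KO and CTL libraries did not overlap, with KO lower, for 41 members in H9M (30.3% of all tested genes) and for 37 in MN1 (29.2% of all tested genes). Imp4 alone did not overlap with KO higher, in MN1 (32.1% of all tested genes).

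**Figure D2:**
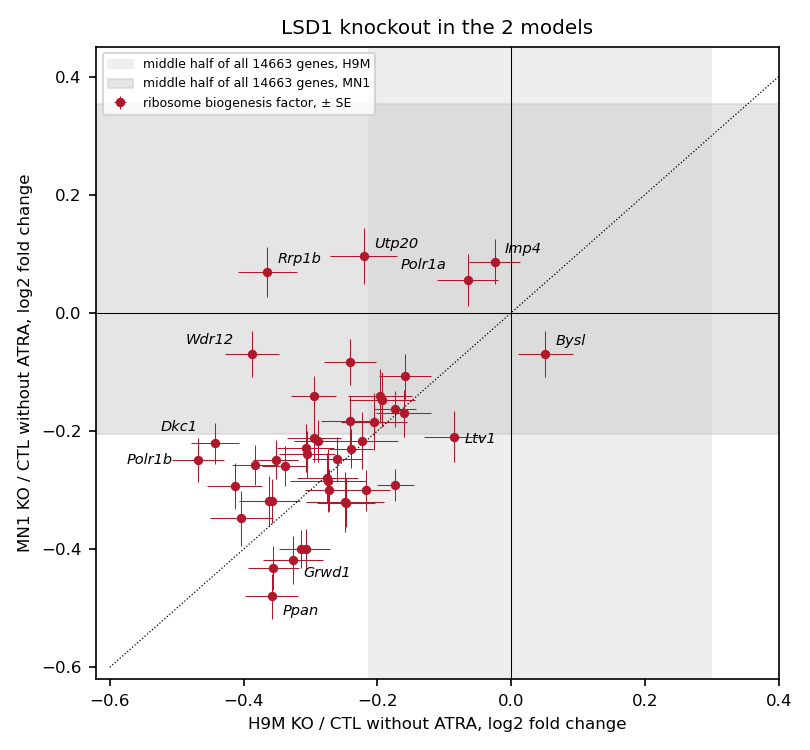
Log2 fold change of KO over CTL without ATRA for each of the 44 factors in H9M (horizontal) and MN1 (vertical), with SE bars; grey bands mark the interquartile range of all 14663 tested genes and the dotted line marks equal change. Most members lie low on both axes, while Rrp1b, Utp20, Polr1a and Imp4 lie above 0 in MN1 and Bysl lies above 0 in H9M, none of them called there.

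The nucleolar organisers and chaperones fell as a whole, 6 of 6 in KO of each model. Ncl encodes nucleolin, an abundant RNA-binding protein of the nucleolus. It had 1396, 1444 and 1321 CPM in H9M KO, against 1763, 1692 and 1702 CPM in H9M CTL (log2 fold change -0.29 ± 0.04 SE, adjusted p = 3.88e-07). In MN1 KO it had 2319, 2300 and 2350 CPM, against 2750, 2591 and 2704 CPM in MN1 CTL (-0.21 ± 0.04, adjusted p = 5.09e-05). Groups did not overlap in either model. Gnl3 encodes nucleostemin, a GTP-binding protein of stem and progenitor cells that acts in large subunit processing. Its level was 99.7, 92.1 and 98.3 CPM in H9M KO, against 126, 131 and 133 CPM in H9M CTL (-0.41 ± 0.04, adjusted p = 7.81e-10). MN1 KO libraries had 181, 168 and 187 CPM of Gnl3, against 213, 221 and 220 CPM in MN1 CTL (-0.29 ± 0.04, adjusted p = 1.95e-07). Nolc1, the snoRNP chaperone Nopp140, changed most of this group in MN1. MN1 KO held 326, 342 and 358 CPM of it, against 452, 463 and 464 CPM in MN1 CTL (-0.43 ± 0.04, adjusted p = 3.18e-11). H9M KO held 252, 263 and 241 CPM, against 322, 327 and 327 CPM in H9M CTL (-0.36 ± 0.04, adjusted p = 2.81e-09). Npm1, the nucleolar chaperone nucleophosmin, fell 1.30-fold in H9M KO and 1.20-fold in MN1 KO. The RNA helicase gene Ddx21 (log2 fold change -0.17 in H9M and -0.29 in MN1) and Mybbp1a, which encodes a nucleolar MYB-binding protein (-0.30 and -0.14), also fell.

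The 2 subunits that form the catalytic centre of RNA polymerase I did not behave alike. Polr1b, which encodes the second largest subunit, had 67.1, 67.8 and 69.3 CPM in H9M KO, against 94.7, 93.0 and 97.8 CPM in H9M CTL (log2 fold change -0.47 ± 0.04 SE, adjusted p = 1.18e-11), the largest fall of any member there. In MN1 KO it had 115, 114 and 115 CPM, against 133, 137 and 138 CPM in MN1 CTL (-0.25 ± 0.04, adjusted p = 9.09e-07). Polr1a, which encodes the largest subunit, did not pass the test. H9M KO had 118, 119 and 109 CPM of Polr1a, against 121, 119 and 125 CPM in H9M CTL (-0.07 ± 0.05, adjusted p = 0.251), and the groups overlapped. MN1 KO had 185, 176 and 172 CPM, against 166, 173 and 172 CPM in MN1 CTL (0.06 ± 0.04, adjusted p = 0.3).

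All 7 snoRNP proteins among the members fell in KO of both models. Box C/D snoRNPs direct 2'-O-methylation of ribosomal RNA. Their core protein gene Nop58 had 186, 187 and 184 CPM in H9M KO, against 236, 227 and 223 CPM in H9M CTL (log2 fold change -0.29 ± 0.04 SE, adjusted p = 7.69e-08). MN1 KO had 350, 354 and 353 CPM of Nop58, against 408, 401 and 415 CPM in MN1 CTL (-0.22 ± 0.04, adjusted p = 5.08e-06). Rrp9, a protein specific to the U3 snoRNP, had 45.3, 46.1 and 46.0 CPM in H9M KO, against 55.4, 61.4 and 61.6 CPM in H9M CTL (-0.36 ± 0.05, adjusted p = 6.73e-08). Its MN1 KO values of 68.0, 68.8 and 70.9 CPM lay below the MN1 CTL values of 84.7, 87.5 and 85.8 CPM (-0.32 ± 0.04, adjusted p = 1.73e-07). Neither gene had overlapping groups. Fbl, the methyltransferase fibrillarin, changed by -0.35 in H9M KO and -0.25 in MN1 KO, and the core protein gene Nop56 by -0.22 and -0.30. Box H/ACA snoRNPs direct pseudouridylation. Dkc1, which encodes the pseudouridine synthase dyskerin, had 145, 146 and 143 CPM in H9M KO, against 201, 197 and 199 CPM in H9M CTL (-0.44 ± 0.04, adjusted p = 5.83e-12). MN1 KO had 240, 246 and 250 CPM of Dkc1, against 285, 278 and 293 CPM in MN1 CTL (-0.22 ± 0.03, adjusted p = 2.3e-06). Nhp2, a core H/ACA protein, had 152, 144 and 148 CPM in H9M KO, against 192, 195 and 207 CPM in H9M CTL (-0.40 ± 0.05, adjusted p = 2.24e-08). In MN1 KO it had 169, 172 and 178 CPM, against 218, 222 and 219 CPM in MN1 CTL (-0.35 ± 0.05, adjusted p = 2.28e-07). Gar1, another core H/ACA protein, changed by -0.27 in H9M KO and -0.28 in MN1 KO.

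Of 10 members of the small subunit processome, 9 fell in H9M KO and 7 in MN1 KO. Wdr43, whose promoter window is printed above, and Wdr75 belong to the module that joins the precursor during transcription. Wdr43 had 163, 157 and 155 CPM in H9M KO, against 204, 200 and 202 CPM in H9M CTL (log2 fold change -0.34 ± 0.03 SE, adjusted p = 9.38e-10). In MN1 KO its values were 255, 258 and 261 CPM, against 310, 304 and 310 CPM in MN1 CTL (-0.26 ± 0.03, adjusted p = 8.49e-08). Wdr75 had 67.8, 67.2 and 69.0 CPM in H9M KO, against 82.6, 80.5 and 81.4 CPM in H9M CTL (-0.25 ± 0.04, adjusted p = 1.53e-05). These groups stayed apart in both models. Wdr75 in MN1 KO stood at 104, 97.9 and 101 CPM, against 121, 127 and 130 CPM in MN1 CTL (-0.32 ± 0.04, adjusted p = 7.55e-08). Noc4l, a factor of small subunit assembly and export, had 85.7, 87.7 and 84.4 CPM in H9M KO, against 105, 116 and 113 CPM in H9M CTL (-0.36 ± 0.04, adjusted p = 2.44e-09). MN1 KO had 115, 113 and 109 CPM of Noc4l, against 138, 144 and 136 CPM in MN1 CTL (-0.32 ± 0.04, adjusted p = 1.11e-08). Heatr1, Utp14a, Utp15 and Nop14 fell in KO of both models, by 0.11 to 0.30 on the log2 scale. Imp3 and Utp20 fell in H9M KO and did not pass the test in MN1 KO. Imp4, which joins the U3 snoRNA to the precursor together with Imp3, did not pass the test in either model (-0.02 in H9M, adjusted p = 0.627; 0.09 in MN1, adjusted p = 0.0517). In MN1 KO, Imp4 was called higher under 4 of the 6 alternatives that keep all libraries compared (DESeq2, RLE size factors, library totals alone and the libraries of 1 model only).

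Of 4 members of later small subunit maturation, 2 fell in H9M KO and 3 in MN1 KO. Rrp12, which accompanies the small subunit out of the nucleus, had 68.3, 66.3 and 62.1 CPM in H9M KO, against 80.3, 77.3 and 82.7 CPM in H9M CTL (log2 fold change -0.27 ± 0.05 SE, adjusted p = 7.04e-06). In MN1 KO it had 108, 106 and 108 CPM, against 127, 130 and 133 CPM in MN1 CTL (-0.28 ± 0.04, adjusted p = 1.81e-06). The groups did not overlap. Tsr1 fell in KO of both models (-0.20 in H9M and -0.14 in MN1), and Ltv1 in MN1 KO (-0.21). Bysl, which encodes bystin, had 63.2, 65.3 and 60.7 CPM in H9M KO, against 60.6, 61.4 and 62.4 CPM in H9M CTL, and did not pass the test (0.05, adjusted p = 0.318).

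Large subunit maturation held 15 members, of which 15 fell in H9M KO and 13 in MN1 KO. Noc2l had 178, 178 and 178 CPM in H9M KO, against 217, 224 and 230 CPM in H9M CTL (log2 fold change -0.31 ± 0.03 SE, adjusted p = 1.91e-09). MN1 KO had 207, 214 and 211 CPM of Noc2l, against 269, 290 and 272 CPM in MN1 CTL (-0.40 ± 0.03, adjusted p = 7.49e-12). Ppan, the mammalian homologue of yeast SSF1, had the largest fall of any member in MN1 KO. Its MN1 KO libraries had 108, 105 and 110 CPM, against 148, 153 and 148 CPM in MN1 CTL (-0.48 ± 0.04, adjusted p = 4.69e-12). H9M KO had 72.3, 77.3 and 73.7 CPM of Ppan, against 94.4, 98.4 and 96.3 CPM in H9M CTL (-0.36 ± 0.04, adjusted p = 7.12e-09). Wdr12 forms the PeBoW complex with Pes1 and Bop1. It had 81.4, 75.1 and 74.9 CPM in H9M KO, against 97.3, 106 and 102 CPM in H9M CTL (-0.39 ± 0.04, adjusted p = 2.28e-09). In MN1 its KO values of 124, 124 and 131 CPM overlapped the CTL values of 134, 129 and 133 CPM (-0.07 ± 0.04, adjusted p = 0.131). Its partners fell in KO of both models, Pes1 by 0.17 and 0.16 and Bop1 by 0.24 and 0.18 on the log2 scale, in H9M and MN1. Rrs1 and Grwd1 changed by -0.31 and -0.33 in H9M KO and by -0.40 and -0.42 in MN1 KO, and Nop2, Nop16, Nle1, Nip7, Ddx18, Ftsj3 and Noc3l fell in KO of both models, by 0.15 to 0.32.

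**Figure D3:**
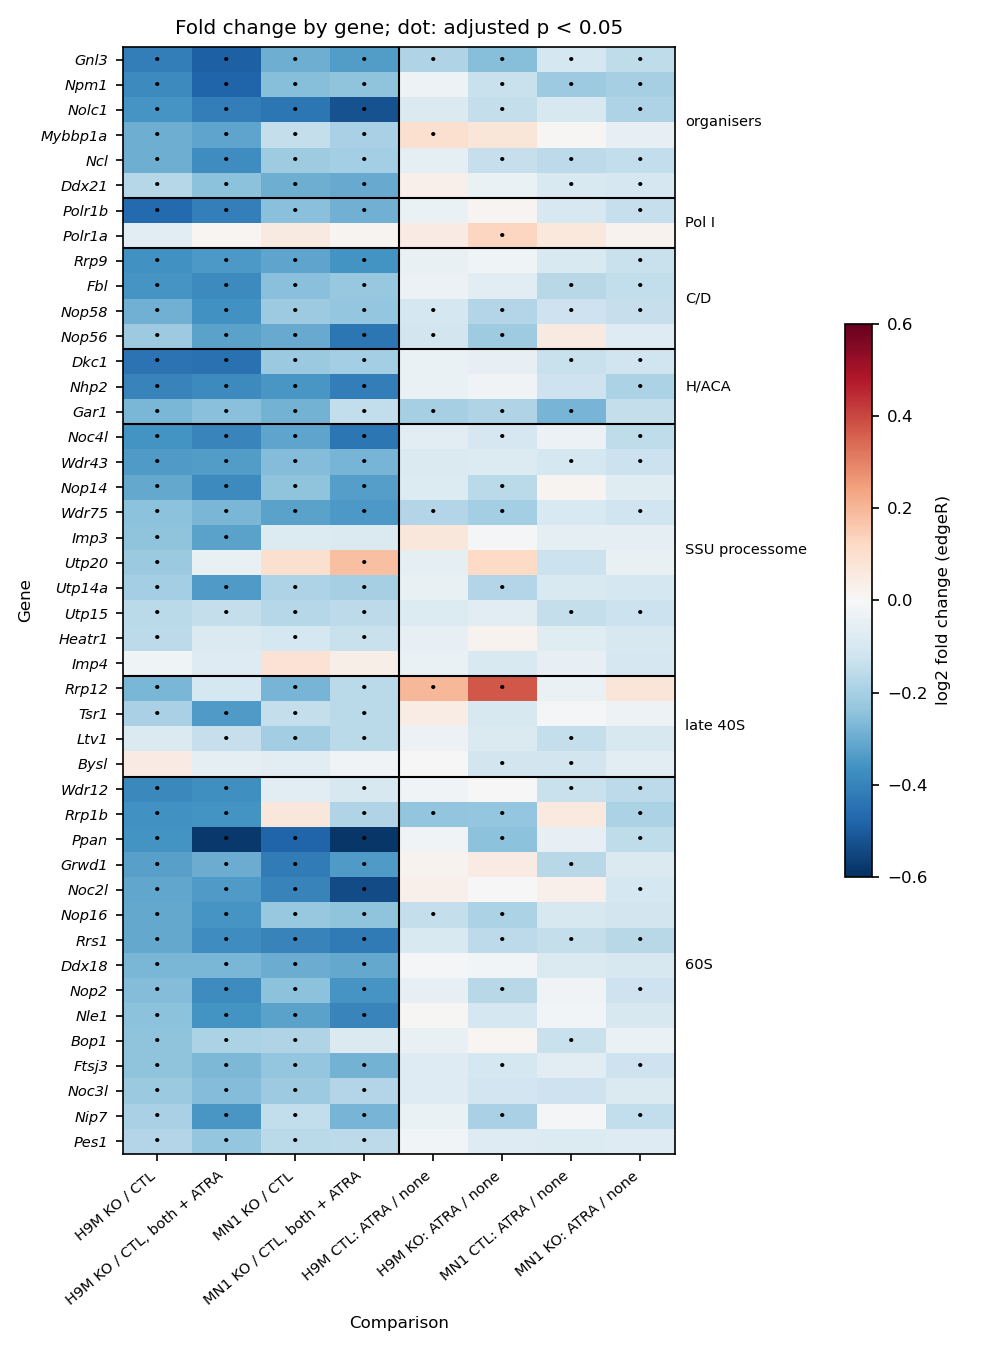
Log2 fold change of each of the 44 factors (rows, ordered by role) in 8 comparisons (columns), 4 of KO over CTL and 4 of ATRA over none; colour runs from -0.6 (blue) to 0.6 (red), and a dot marks adjusted p under 0.05. The 4 knockout columns are blue for most rows, and the ATRA columns are paler, with Rrp12 red in the H9M columns.

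Knockout was compared with control a second time with ATRA present in both arms. In H9M cells 38 of 44 factors fell in KO with ATRA and 0 rose (51.1% of all tested genes were called, 24.4% lower and 26.7% higher), with a median log2 fold change of -0.34. In MN1 cells 38 fell and 1 rose, Utp20 (57.2% of all tested genes were called, 28.6% lower and 28.6% higher), with a median of -0.24. Utp20, a large scaffold protein of the processome, had 171, 174 and 160 CPM in MN1 KO with ATRA, against 149, 148 and 142 CPM in MN1 CTL with ATRA (log2 fold change 0.18 ± 0.05 SE, adjusted p = 0.00186). The largest falls in H9M were those of Ppan (-0.58), Gnl3 (-0.49), Npm1 (-0.48) and Dkc1 (-0.45). In MN1 they were those of Ppan (-0.58), Noc2l (-0.54), Nolc1 (-0.52) and Noc4l (-0.43). Over the 4 knockout comparisons 33 members were called lower in all and 39 had a negative log2 fold change in all, while Bysl, Imp4 and Polr1a were called in none. How many of all tested genes met the same conditions was not counted, so these counts have no background. The comparisons with and without ATRA do not share libraries. In MN1 with ATRA the call of Wdr12 was lost under each of the 6 alternatives that keep all libraries compared, and that of Gar1 under RLE size factors, library totals alone and DESeq2.

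The effect of ATRA itself was smaller. In H9M CTL 7 of 44 factors fell with ATRA and 2 rose (25.2% of all tested genes were called, 12.3% lower and 12.9% higher), with a median log2 fold change of -0.04. The share of members called there was no larger than that of all tested genes. In MN1 CTL 16 fell with ATRA and 0 rose (21.8% called, 10.4% lower and 11.4% higher), with a median of -0.09. Libraries with and without ATRA did not overlap in H9M CTL for 27 members that were lower with ATRA (23.6% of all tested genes) and for 1 that was higher (14.3%). In MN1 CTL they did not overlap for 21 members that were lower with ATRA (15.1% of all tested genes) and for 2 that were higher (21.5%). Without MN1 CTL replicate 1, or without replicate 3, the MN1 count was 10, and without H9M CTL replicate 2 the H9M count of called members was 5. With library totals alone it was 15 in H9M CTL, 1 higher and 14 lower. Gar1, Gnl3 and Nop58 were called lower in both models. Of the 6 alternatives that keep all libraries compared, 4 lost the call of Gnl3 in MN1 and 3 that of Nop58 in H9M, and each was also lost without any of several single libraries. Gar1 had 48.1, 40.8 and 46.8 CPM in H9M CTL with ATRA, against 52.9, 54.6 and 52.8 CPM in H9M CTL (-0.20 ± 0.06 SE, adjusted p = 0.00837). This call was lost without H9M CTL with ATRA replicate 2, the library at 40.8 CPM (-0.14, adjusted p = 0.0957). MN1 CTL with ATRA had 67.7, 64.5 and 63.5 CPM of Gar1, against 83.2, 75.3 and 75.8 CPM in MN1 CTL (-0.28 ± 0.05, adjusted p = 0.000178), the largest fall there. The next were Npm1 (-0.22), Fbl (-0.17) and Grwd1 (-0.17) in MN1, and Rrp1b (-0.24) and Gnl3 (-0.18) in H9M. Rrp12 rose in H9M CTL with ATRA, at 88.0, 91.7 and 89.3 CPM, against 80.3, 77.3 and 82.7 CPM without (0.20 ± 0.04, adjusted p = 0.00102). Mybbp1a rose there as well (0.09, adjusted p = 0.0407), a call lost with library totals alone and with no filter on low counts. Other gene groups also moved with ATRA, and their part was not tested. Immature myeloid markers summed to 6952 to 7303 CPM in H9M CTL with ATRA, against 12590 to 13040 CPM in H9M CTL (3 of 7 lower, 1 higher), and to 3639 to 3700 CPM in MN1 CTL with ATRA, against 4400 to 4538 CPM in MN1 CTL (3 lower, 1 higher). Of 20 cell cycle genes, 11 fell and 1 rose with ATRA in H9M CTL, and 6 fell and 0 rose in MN1 CTL.

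Within knockout cells, 19 of 44 factors fell with ATRA in H9M and 2 rose (29.4% of all tested genes were called, 15.4% lower and 13.9% higher). In MN1 KO 23 fell and 0 rose (18.8% called, 10.4% lower and 8.42% higher). The medians were -0.09 and -0.11. With library totals alone the MN1 count was 9. The largest changes in H9M KO were those of Rrp12 (0.37), Gnl3 (-0.26), Ppan (-0.24) and Rrp1b (-0.23). Rrp12 had 83.9, 84.2 and 82.0 CPM in H9M KO with ATRA, against 68.3, 66.3 and 62.1 CPM in H9M KO (adjusted p = 1.25e-07), with no overlap. Polr1a was the other member called higher there (0.13, adjusted p = 0.0355), a call lost with library totals alone and without any of 3 single libraries. In MN1 KO the largest changes were those of Npm1 (-0.20), Rrp1b (-0.19), Nhp2 (-0.19) and Nolc1 (-0.18). In H9M KO, Kdm1a was at 11.5, 10.3 and 11.5 CPM with ATRA, against 0.937, 0.998 and 0.952 CPM without, so these 2 knockout groups differ in the level of the deleted gene as well as in ATRA. In MN1 KO, Kdm1a was at 2.22, 1.85 and 2.36 CPM with ATRA, against 1.41, 1.28 and 1.58 CPM without. Neutrophil markers summed to 936 to 992 CPM in H9M KO with ATRA, with Ngp at 0, against 1721 to 2025 CPM in H9M KO (5 of 10 tested lower, 2 higher), and to 341 to 372 CPM in MN1 KO with ATRA, against 513 to 551 CPM in MN1 KO (5 lower, 2 higher). Immature myeloid markers summed to 10970 to 11560 CPM in H9M KO with ATRA, against 15450 to 15650 CPM without (4 of 7 lower, 3 higher). For MN1 KO the sums were 5740 to 5843 CPM with ATRA, against 6646 to 6778 CPM without (3 lower, 1 higher). Of 10 tested monocyte and macrophage markers, 7 fell and 1 rose with ATRA in H9M KO, and 3 fell and 2 rose in MN1 KO. The part of these marker groups was not tested.

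Knockout together with ATRA, set against untreated control, gave the largest differences. In H9M 40 of 44 factors were called lower and 0 higher (56.3% of all tested genes were called, 27.9% lower and 28.4% higher), with a median of -0.39. In MN1 41 of 44 were called lower and 0 higher (60.6% called, 29.8% lower and 30.8% higher), with a median of -0.35. The 2 models had 39 of these members in common, and the share of all tested genes in common was not counted. In H9M, Rrp12 was called higher under RLE size factors, the libraries of 1 model only and DESeq2. In MN1, Polr1a was called higher under RLE size factors, library totals alone and DESeq2. The lower call of Rrp1b in MN1 was lost under the same alternatives as gave the call of Polr1a. Gnl3 changed most in H9M. It had 82.9, 78.6 and 77.3 CPM in H9M KO with ATRA, against 126, 131 and 133 CPM in H9M CTL (log2 fold change -0.67 ± 0.04 SE, adjusted p = 1.49e-14), 1.59-fold lower. Ppan changed most in MN1, with 94.7, 103 and 101 CPM in MN1 KO with ATRA, against 148, 153 and 148 CPM in MN1 CTL (-0.63 ± 0.04, adjusted p = 6.53e-15), 1.55-fold lower. Others were Ppan (-0.60), Rrp1b (-0.60) and Npm1 (-0.52) in H9M, and Nolc1 (-0.62), Rrs1 (-0.57) and Nhp2 (-0.54) in MN1.

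**Figure D4:**
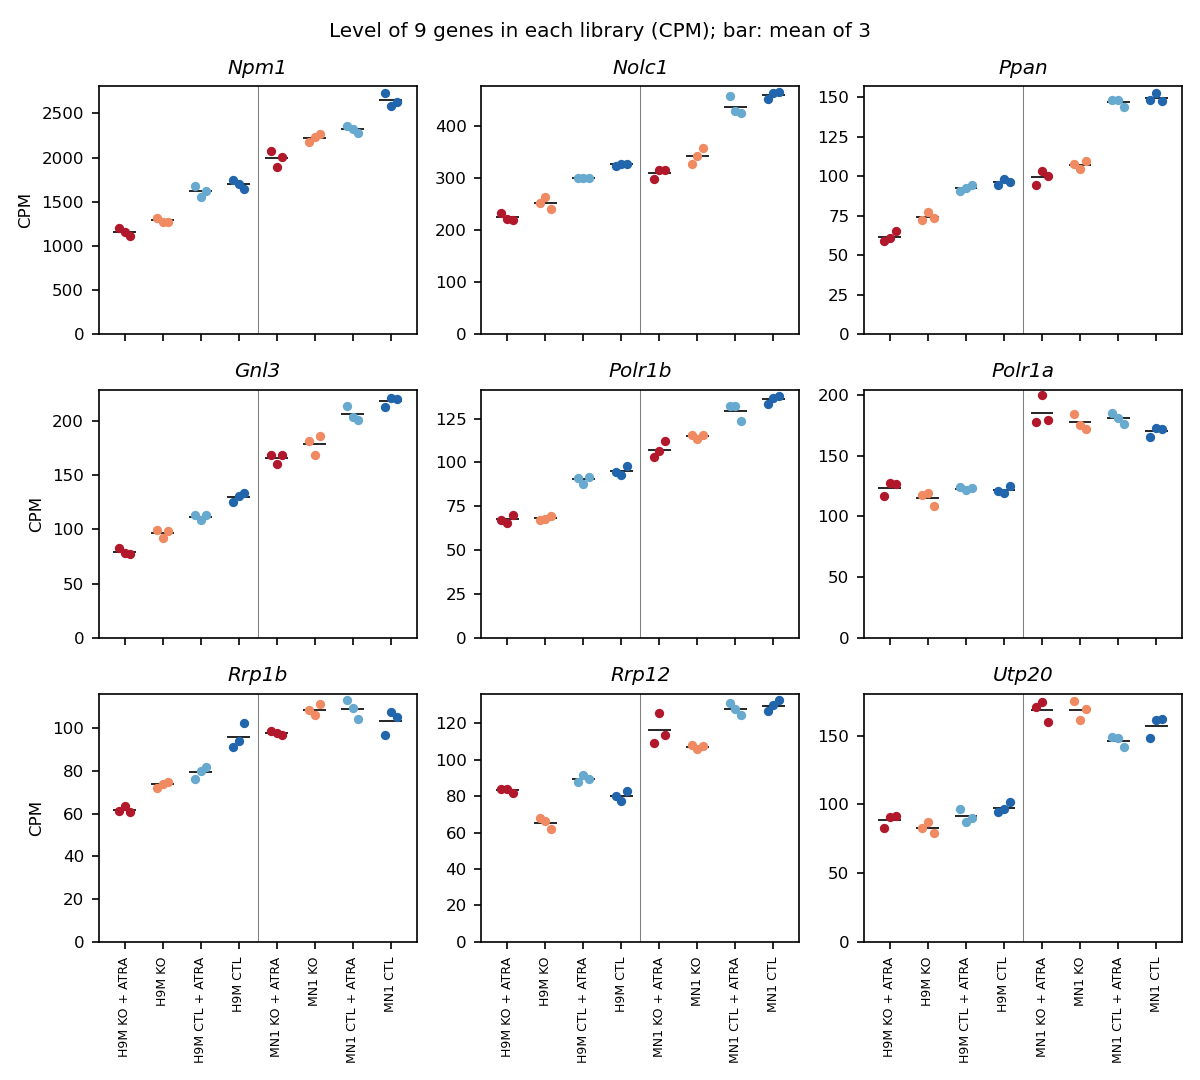
CPM of 9 members in each of 24 libraries (points), with group means (lines), in the 4 H9M groups (left of each panel) and the 4 MN1 groups (right). Npm1, Nolc1, Ppan, Gnl3 and Polr1b are lower in KO than in CTL in both models, Polr1a overlaps between KO and CTL without ATRA, Rrp12 is higher with ATRA in H9M, and Utp20 is lower in KO in H9M without ATRA and higher in KO with ATRA in MN1.

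Whether knockout and ATRA together departed from the sum of their separate effects was tested as an interaction. In H9M 1 of 44 members was called, Ppan, with an interaction of -0.22 ± 0.06 SE on the log2 scale (adjusted p = 0.0158; 5.04% of all tested genes were called, 2.25% higher and 2.79% lower). Without H9M KO with ATRA replicate 1 or H9M KO replicate 2, or with no filter on low counts, the count was 0. In MN1 the 1 member called was Rrp1b, at -0.25 ± 0.06 (adjusted p = 0.0146; 2.78% of all tested genes were called, 1.09% higher and 1.68% lower). That count was 0 without MN1 KO replicate 3, MN1 CTL with ATRA replicate 1 or MN1 CTL replicate 1. For the other 43 members the test found no departure from additive effects, which does not show that there was none.

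The size of the knockout effect without ATRA differed between models, MN1 minus H9M, for 8 of 44 members, 7 of them higher in MN1 (28.4% of all tested genes were called, 14.2% higher and 14.2% lower). Rrp1b, a nucleolar protein that partners with protein phosphatase 1, differed most. It had 108, 106 and 111 CPM in MN1 KO, against 96.6, 108 and 105 CPM in MN1 CTL, which overlapped. In H9M KO it had 72.1, 74.0 and 74.9 CPM, against 91.3, 93.8 and 103 CPM in H9M CTL (difference 0.43 ± 0.06 SE, adjusted p = 1.41e-06). Wdr12 (0.32), Utp20 (0.32), Dkc1 (0.22) and Polr1b (0.22), with Imp3 and Mybbp1a, fell less or did not fall in MN1. The call of Imp3 was lost with no filter on low counts and without any of several single libraries. That of Mybbp1a was lost without H9M CTL replicate 3 or without MN1 CTL replicate 1. Ddx21 fell more in MN1 (-0.12, adjusted p = 0.0236). Its call was lost with library totals alone, with no filter on low counts and without any of several single libraries. The ATRA effect in controls differed for 6 of 44 members, 2 higher and 4 lower in MN1 (13.8% of all tested genes were called, 6.64% higher and 7.15% lower), led by Rrp1b (0.29) and Rrp12 (-0.24). This count was 3 with library totals alone, without H9M CTL with ATRA replicate 1 and without MN1 CTL replicate 2. In Rrp12, MN1 CTL with ATRA had 132, 128 and 125 CPM, against 127, 130 and 133 CPM in MN1 CTL, while the H9M values given above did not overlap.

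Untreated MN1 controls had higher levels than untreated H9M controls for 40 of 44 members and a lower level for 1, Imp4 (73.5% of all tested genes were called, 37.6% higher and 35.9% lower). The median log2 difference was 0.43, against 0.00 over all tested genes. Nle1, which encodes a large subunit maturation factor, had 62.5, 68.6 and 67.9 CPM in MN1 CTL, against 33.6, 35.9 and 37.8 CPM in H9M CTL (0.80 ± 0.05 SE, adjusted p = 1.87e-14). Ddx21 had 684, 706 and 706 CPM in MN1 CTL, against 381, 377 and 378 CPM in H9M CTL (0.80 ± 0.03, adjusted p = 2.27e-21). Grwd1, a histone-binding protein of the large subunit pathway, was 1.73-fold higher and Nop58 1.68-fold higher. Imp4 had 118, 116 and 117 CPM in MN1 CTL, against 124, 121 and 128 CPM in H9M CTL (-0.18 ± 0.04, adjusted p = 0.000106). Nhp2, Imp3 and Rrp1b did not pass the test. The difference of model carries the difference of LR number with it. Cell-type markers and cell cycle genes differed as well, and their part was not tested. Immature myeloid markers summed to 4400 to 4538 CPM in MN1 CTL, against 12590 to 13040 CPM in H9M CTL. Mast cell and basophil markers summed to 1307 to 1381 CPM in MN1 CTL, against 48.5 to 50.4 CPM in H9M CTL, where Fcer1a and Tpsb2 were at 0. Neutrophil markers summed to 30.1 to 35.1 CPM in MN1 CTL, against 165 to 174 CPM in H9M CTL. Monocyte and macrophage markers summed to 569 to 582 CPM in MN1 CTL, against 122 to 140 CPM in H9M CTL. Megakaryocyte markers summed to 109.1 to 113.5 CPM in MN1 CTL, against 3.01 to 3.81 CPM in H9M CTL. Each sum is weighted to the most abundant genes of its list. Of 20 cell cycle genes, 13 were higher and 3 lower in MN1 CTL.

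Other genes of the pathway, listed by role and also with earlier results of these data known, were also lower in KO. Of 12 other snoRNP proteins and assembly factors, 11 fell and 0 rose in H9M KO, and 11 fell and 0 rose in MN1 KO. The ATPase genes Ruvbl1 and Ruvbl2, which assemble box C/D snoRNPs, changed by -0.44 and -0.48 in H9M KO, and Ruvbl2 by -0.40 and Tcof1 by -0.46 in MN1 KO. Among 30 other small subunit factors, 24 fell and 2 rose in H9M KO, and 25 fell and 3 rose in MN1 KO. Of 33 other large subunit factors, 26 fell and 1 rose in H9M KO, and 24 fell and 2 rose in MN1 KO. The RNA polymerase I machinery was more mixed, with 6 of 13 lower and 2 higher in H9M KO and 7 lower and 3 higher in MN1 KO. In it the transcription factor gene Ubtf fell (-0.40 in H9M KO and -0.30 in MN1 KO), while the subunit gene Polr1e rose (0.18 and 0.43).

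Cytosolic ribosomal protein genes, the products that these factors assemble, were called lower more often in H9M KO than in MN1 KO. This difference was not tested for the list. In H9M KO 77 of 80 fell and 0 rose (median -0.25), with Rpl4 (-0.33) and Rpl3 (-0.30) having the smallest adjusted p. In MN1 KO 34 of 80 fell and 2 rose (median -0.08). When ATRA was present in both arms, 78 of 80 fell and 0 rose in H9M KO (median -0.35). In MN1 KO 61 of 80 fell and 1 rose there (median -0.14). With ATRA in H9M CTL, 41 of 80 ribosomal protein genes rose and 0 fell (median 0.10). Of the 44 biogenesis factors, 7 fell and 2 rose there. Of all tested genes, 12.9% were called higher there and 12.3% lower. No test was made between the lists. Myc had 377, 375 and 359 CPM in H9M KO, against 436, 424 and 452 CPM in H9M CTL (log2 fold change -0.23 ± 0.04 SE, adjusted p = 2.9e-05). MN1 KO had 329, 334 and 330 CPM of Myc, against 394, 380 and 369 CPM in MN1 CTL (-0.21 ± 0.04, adjusted p = 7.43e-05). With ATRA in both arms Myc changed by -0.61 in H9M KO and by -0.35 in MN1 KO. Of the 11 listed genes of the MYC network, 5 fell and 2 rose in H9M KO, and 4 fell and 3 rose in MN1 KO. Of all tested genes, 25.4% were called lower and 26.1% higher in H9M KO, and 26.3% lower and 28.7% higher in MN1 KO. In untreated controls Myc was lower in MN1 than in H9M (-0.29), and of the 11 genes 4 were higher and 5 lower there. Of all tested genes, 37.6% were called higher and 35.9% lower in that comparison. Mycn, the MYC paralogue N-MYC, ran the other way, with 20.8, 20.9 and 17.4 CPM in MN1 CTL, against 0, 0 and 1 count in the 3 H9M CTL libraries. Mycn fell in MN1 KO (14.6, 14.4 and 15.7 CPM; -0.40, adjusted p = 0.00103).

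**Figure D5:**
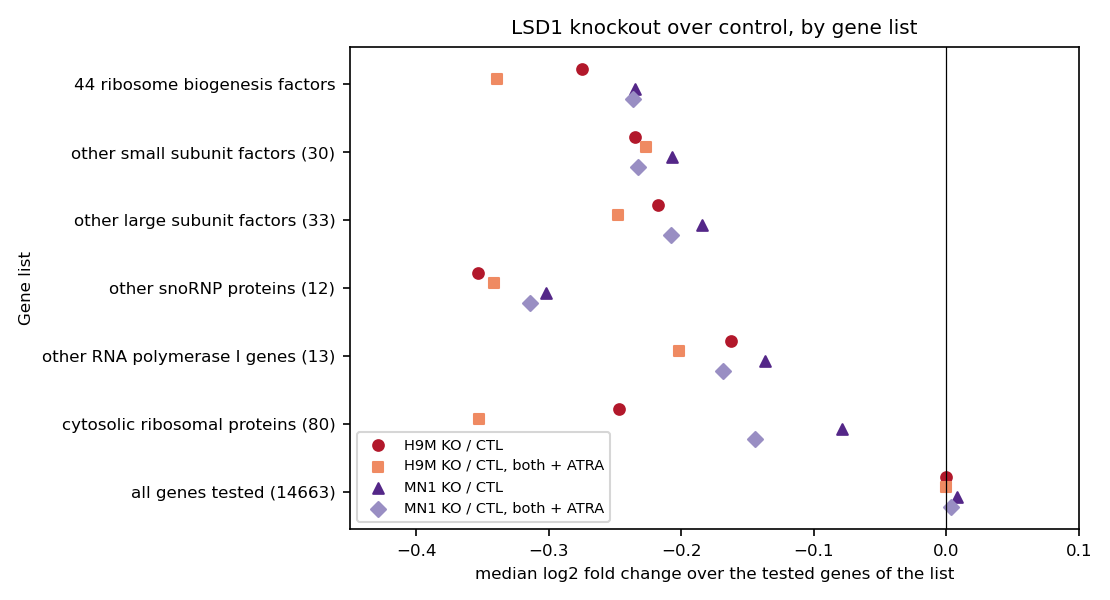
Median log2 fold change of KO over CTL (horizontal) for the ribosome biogenesis factors, 5 other gene lists and all tested genes (rows), with a marker for each model without and with ATRA in both arms. Without ATRA the biogenesis factors have medians of -0.27 (H9M) and -0.23 (MN1) and ribosomal protein genes -0.25 and -0.08, while all tested genes lie near 0.

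Other gene groups moved along with the factors, and their part in the result was not tested. Of 20 cell cycle genes, 12 fell and 1 rose in H9M KO, and 18 fell and 1 rose in MN1 KO, with Mcm7, a subunit of the replicative helicase, at -0.37 and -0.52. Of 12 p53 target genes, 10 rose in H9M KO and 12 in MN1 KO, and none fell. In H9M, monocyte and macrophage markers (12 genes) summed to 1083 to 1117 CPM in KO, against 122 to 140 CPM in CTL, where Ly86 was at 0. Of 10 tested, 10 rose in H9M KO. Neutrophil markers (11 genes) summed to 1721 to 2025 CPM in H9M KO, against 165 to 174 CPM in H9M CTL, where Ltf was at 0, and 8 of 10 tested rose. In MN1, monocyte and macrophage markers summed to 950 to 965 CPM in KO, against 569 to 582 CPM in CTL, with Ly86 and Msr1 at 0 in both groups and 9 of 10 tested higher. Neutrophil markers summed to 513 to 551 CPM in MN1 KO, against 30.1 to 35.1 CPM in MN1 CTL, with 9 of 10 tested higher. Immature myeloid markers (7 genes) summed to 15450 to 15650 CPM in H9M KO, against 12590 to 13040 CPM in H9M CTL, although 3 of the 7 fell there and 2 rose. In MN1 they summed to 6646 to 6778 CPM in KO, against 4400 to 4538 CPM in CTL, with 4 higher and 1 lower. Mast cell and basophil markers in MN1 summed to 2330 to 2356 CPM in KO, against 1307 to 1381 CPM in CTL.

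H3K4me2 at the members' promoters was measured in lineage-negative bone marrow, which is not the cultured material above. Reads within 1 kb of the start were counted for the 39 members with a promoter entry. With 1 library per group there is no test, and the intervals cover counting error only. Member promoters held 12.5 to 43.9 RPM (reads per 1000000 reads kept, median 28.8) in GFI-KD and 17.2 to 46.0 (median 31.4) in GFI1-WT, against medians of 26.6 in GFI-KD and 27.3 in GFI1-WT over 10316 tested genes. Every member had at least 10 reads in both libraries. Summed over members, GFI-KD had 0.941 times the RPM of GFI1-WT (95% counting interval 0.916 to 0.966), where the ratio over all tested genes was 0.997. The median log2 ratio of members was -0.07, against -0.04 over all tested genes. Tsr1 had the highest level, 43.9 RPM in GFI-KD (95% exact Poisson interval 39.8 to 48.3) and 46.0 in GFI1-WT (41.7 to 50.7). Dkc1 had the lowest, 12.5 in GFI-KD (10.3 to 14.9) and 17.2 in GFI1-WT (14.6 to 20.2). Wdr43, with its E-box window printed above, had 23.5 (20.5 to 26.8) in GFI-KD and 27.3 (23.95 to 30.9) in GFI1-WT. Rrp9 stood out in the other direction, with 43.5 (39.4 to 47.9) in GFI-KD and 34.8 (31.0 to 38.8) in GFI1-WT.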

How the data were processed

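The deposited RNA table holds whole-number counts per gene and library for 24 libraries; per the submitters' processing notes the authors aligned reads to mm10 with STAR 2.5.3. No label or header names a counting tool, annotation or strand setting, and overlapping and paralogous genes are therefore uncertain. ChIP reads, deposited as 1 aligned read per line with a mapping score, were made with CASAVA 1.8.2, BWA and bedtools 2.27.0 on GRCm38, per the same notes; the score of the authors served only as a filter (at least 10), which kept 9538627 of 9588899 reads in GFI-KD and 8949072 of 9000433 in GFI1-WT. An input library was not used here. Symbols were matched to 48349 of 48795 gene IDs.

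Counts were tested with edgeR 4.0.16 (R 4.3.3, limma 3.58.1): TMM factors, filterByExpr, 1 quasi-likelihood fit of 8 group means over 24 libraries with 16 residual degrees of freedom, and Benjamini-Hochberg adjustment over all 14663 tested genes of each comparison. Fold changes are those of the fit, and CPM uses library totals. The script was tested on simulated data. Alternatives were RLE size factors, library totals alone, no filter on low counts, a replicate block, the libraries of 1 model only, DESeq2 1.42.0 and leaving out each library. No pairing of libraries by replicate number was detected, which does not show that there was none. Same-numbered pairs of a model did not correlate over 0.1 in their deviations from group means, with a highest value of 0.07 in H9M and 0.077 in MN1. Replicates of a group differed beyond counting noise, with chi-square per degree of freedom from 2.05 to 7.51.

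Full values were given, per role, to the member with the highest mean CPM and to those with the largest called change in H9M and in MN1 KO without ATRA; elsewhere the 4 largest called changes, and of other lists the 2 smallest adjusted p. Members outside this rule are named for completeness, with values chosen after they were seen. The members and all gene lists were chosen with earlier results of these data known.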

Additional observations from a re-analysis of the deposited data

Results flagged for a closer look

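The knockout effect without ATRA, MN1 minus H9M, differed by the interaction test of edgeR for 8 of the 44 factors, where 28.4% of all tested genes were called, a larger share. Among the 8 were Rrp1b (0.43 on the log2 scale), Wdr12 (0.32), Utp20 (0.32) and Dkc1 (0.22). Rrp1b changed by 0.07 in MN1 KO and by -0.36 in H9M KO. Wdr12 changed by -0.07 in MN1 KO and by -0.39 in H9M KO, while its PeBoW partners Pes1 and Bop1 did not pass the test of a difference between models. Utp20 changed by 0.10 in MN1 KO and by -0.22 in H9M KO.

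The ATRA effect in controls, MN1 minus H9M, differed for 6 of 44 factors, a share like the 13.8% of all tested genes called. Among the 6 were Rrp1b (0.29), Rrp12 (-0.24), Grwd1 (-0.19) and Npm1 (-0.18). The calls of Grwd1 and Npm1 were lost with library totals alone, and that of Grwd1 also with no filter on low counts and without any of 7 single libraries. Rrp12 rose with ATRA in H9M CTL (0.20) and did not pass the test in MN1 CTL (-0.04).

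The knockout by ATRA interaction was called for 1 factor in H9M, Ppan (-0.22), and for 1 in MN1, Rrp1b (-0.25), where 5.04% of all tested genes were called in H9M and 2.78% in MN1. Ppan changed with ATRA by -0.24 in H9M KO and by -0.02 in H9M CTL. Rrp1b changed with ATRA by -0.19 in MN1 KO and by 0.06 in MN1 CTL.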

How the results depend on the processing

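In the 4 knockout comparisons the count of called members kept within 35 to 40 under every alternative run, and no member's call turned its direction in any comparison. Over all members and comparisons, apart from leaving out libraries, 3703 results kept their side of the threshold, 40 passed it newly and 85 lost it; with 1 library left out the numbers were 4821, 34 and 161. With library totals alone, called members numbered 15 in place of 9 for ATRA in H9M CTL, 9 in place of 23 for ATRA in MN1 KO, and 3 in place of 6 for the difference of ATRA effects between models; the cause was not tested. With no filter on low counts the H9M interaction had 0 called members. Leaving out 1 library gave 5 to 8 called members for ATRA in H9M CTL, 10 to 17 in MN1 CTL, 3 to 5 for the difference of ATRA effects, and 0 to 1 for each interaction. Library totals alone turned the split of all called genes with ATRA to 1495 higher and 2620 lower in H9M CTL (TMM 1887 and 1808), 1955 and 1118 in MN1 CTL (1669 and 1530), and 1707 and 836 in MN1 KO (1234 and 1525); for the difference of ATRA effects it was 1667 and 674 (974 and 1048). The fit with the replicate block called 40, 38, 37 and 38 members in the 4 knockout comparisons (H9M, H9M with ATRA, MN1, MN1 with ATRA), 9 and 17 for ATRA in H9M and MN1 CTL, and moved no count by over 1.5 times. The summed H3K4me2 ratio stayed inside its counting interval within 2.5 kb of the start and with all reads. Precision is set by 3 libraries a group, with a common coefficient of variation of 4.01%, and at 1 ChIP library a group by counting alone.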
